A study of Mus musculus with 9 samples.

Results

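A set of 10 genes of serine synthesis and of the folate-dependent one-carbon cycle was followed in RNA sequencing libraries of adult mouse cortex: Phgdh, Psat1, Psph, Shmt1, Shmt2, Mthfd1, Mthfd1l, Mthfd2, Aldh1l2 and Gldc. They were taken by gene symbol from a table of raw counts for 56748 genes, in which each symbol stood on 1 row. All 10 passed the filter on low counts and are among the 18093 genes tested. The mice were wild-type C57BL/6J animals of 2 to 3 months in all groups. Uninjured cortex was intact tissue. Injured cortex was the core of a lesion made with a grid of lancet stabs. In both, the dissociated cells were sorted to leave out debris, dead cells and a neuronal fraction positive for CD171 and negative for ACSA-2, a surface antigen of astrocytes. The reactive cultures came from lesion cores that were dissected and grown in medium holding B27 supplement and 10% fetal bovine serum and were collected whole, with no sort, so the sort differs between the cultures and both other groups together with the culture itself. For injured cortex the sample labels give 1 day after injury and the series text gives 3 days. For the cultures the labels give dissection at 1 day and 6 days in culture, and the series text gives dissection at 24 h and 8 days. Each group had 3 libraries, described as biological replicates.

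Serine is made from the glycolytic intermediate 3-phosphoglycerate by the enzymes encoded by Phgdh (phosphoglycerate dehydrogenase), Psat1 (phosphoserine aminotransferase) and Psph (phosphoserine phosphatase). Serine hydroxymethyltransferases, encoded by Shmt1 for the cytosol and Shmt2 for mitochondria, split serine into glycine and a one-carbon unit carried by tetrahydrofolate. In mitochondria the unit is oxidised to formate through Mthfd2 and Mthfd1l or to carbon dioxide through Aldh1l2, in the cytosol Mthfd1 handles formate for purine and thymidylate synthesis, and Gldc is the decarboxylase of the glycine cleavage system. In brain, Phgdh and Gldc are best known as genes of astrocytes, which supply L-serine to neurons, and the mitochondrial folate genes are best known from dividing cells.

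Total counts ran from 12205049 to 24302770 per library. Each level below is TMM-normalised CPM (counts scaled to sequencing depth with edgeR's trimmed mean of M values), and each change is a log2 fold change ± SE from edgeR's quasi-likelihood test, called at a Benjamini-Hochberg adjusted p under 0.05 over all genes tested. Markers of the sorted cell classes were present in both in vivo groups. A sum over 10 astrocyte markers was 3998 to 6957 CPM in uninjured cortex, 2277 to 4016 CPM in injured cortex and 105 to 170 CPM in the cultures. Of these 10 markers none was at 0 in any library, and all 10 fell in the cultures against each in vivo group. Microglia markers summed to 9586 to 15100, 6324 to 17480 and 1538 to 2401 CPM, oligodendrocyte markers to 19860 to 35380, 13050 to 18290 and 416 to 788 CPM, and neuron markers to 13.3 to 26.9, 44.4 to 93.8 and 18.8 to 25.2 CPM, in the same order. Monocyte and macrophage markers, mostly Lyz2 in the cultures, summed to 584 to 661, 1923 to 8866 and 40460 to 47940 CPM, but against injured cortex 3 of these 8 rose in the cultures and 5 fell (median of the 8 -3.43), Ccr2 and Ly6c2 among the latter. Oligodendrocyte precursor markers summed to 159 to 399.5 CPM in uninjured cortex, 191 to 725 CPM in injured cortex and 41.45 to 62.2 CPM in the cultures. In the same order, fibroblast markers gave 70.4 to 141.5, 63.8 to 78.5 and 305 to 662 CPM, and neutrophil markers 175 to 221, 357 to 503 and 30.6 to 42.6 CPM. Mural markers gave 752 to 1385, 431 to 482.5 and 26.5 to 33.6 CPM, and endothelial markers 178 to 499.6, 256 to 433 and 82.4 to 122.7 CPM. In bulk RNA, fewer cells of a type and less RNA per cell cannot be told apart. Injured replicate 3 stood apart within its group, with the astrocyte sum at 4016 CPM against 2277 and 2726 CPM and the monocyte and macrophage sum at 1923 CPM against 8866 and 6270 CPM. Its oligodendrocyte precursor sum was 725 CPM against 466 and 191 CPM. A sum over 1767 olfactory and vomeronasal receptor genes was 146 and 109 CPM in uninjured replicates 2 and 3, against 17.9 to 38.9 CPM in the other 7 libraries. Results that rest on these 3 libraries are given with and without them.

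The promoters of the members that carry the main contrast are shown first, because Phgdh and Psat1 were low and Mthfd2 and Shmt2 high in the cultures, and because all 4 are known targets of ATF4, the transcription factor of the amino acid response. Asns, a textbook ATF4 target that rose in every comparison, is set beside them. Each run is the 100 bases just before the gene's start in the RefSeq promoter table (GRCm38.p6), 5′ to 3′ on the gene's strand: Phgdh at chr3:98339970-98340069, Psat1 at chr19:15925060-15925159, Mthfd2 at chr6:83317605-83317704, Shmt2 at chr10:127522445-127522544 and Asns at chr6:7693210-7693309, all on the minus strand. In the first 4, capitals mark CCAAT or its reverse complement where present, a motif other than the ATF4 site. In Asns they mark TGATGNAA, letters of the composite site through which ATF4 and a C/EBP partner are known to act.
Phgdh: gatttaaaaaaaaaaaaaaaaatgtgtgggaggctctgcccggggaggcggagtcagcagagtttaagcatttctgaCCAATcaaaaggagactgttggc
Psat1: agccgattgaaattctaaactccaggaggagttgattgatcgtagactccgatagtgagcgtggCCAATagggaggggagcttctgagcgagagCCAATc
Mthfd2: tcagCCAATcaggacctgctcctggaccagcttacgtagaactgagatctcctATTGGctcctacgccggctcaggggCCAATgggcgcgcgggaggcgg
Shmt2: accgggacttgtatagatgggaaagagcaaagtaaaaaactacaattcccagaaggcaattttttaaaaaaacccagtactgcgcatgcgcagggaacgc
Asns: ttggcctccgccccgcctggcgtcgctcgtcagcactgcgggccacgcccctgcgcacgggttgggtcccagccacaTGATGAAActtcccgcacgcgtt
Both motifs were searched on both strands of windows of 300 bases, 250 before and 50 after the start. Of the 10 members, 9 had a window in the table and Aldh1l2 had none. TGATGNAA was found in 0 of the 9, in 4 of 9 ATF4-list genes with a window (Asns, Chac1, Trib3 and Slc7a11) and in 3.97% of all 32851 windows. CCAAT was found in 7 of the 9 members, the exceptions being Shmt2 and Mthfd1l, in 6 of the 9 ATF4-list genes and in 37.4% of all windows. The run of Shmt2 therefore has no capitals. These matches describe letters only, and no match says only that the letters are not in this window.

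Phgdh and Psat1 were the most abundant of the 10 per kilobase in all 3 groups, and the order below them differed between the cultures and cortex. Per kilobase of exon (lengths from GENCODE M21, an annotation of another build than the counts), Phgdh stood at 133 ± 28.2 CPM per kb in uninjured cortex, 110.5 ± 6.44 in injured cortex and 34.2 ± 4.85 in the cultures (SD, n = 3). Psat1 stood at 90.4 ± 18.6, 67.0 ± 6.99 and 27.0 ± 1.58 CPM per kb. In uninjured cortex Psph came next at 19.2 ± 1.40 CPM per kb. Shmt2 followed at 7.11 ± 1.56, Mthfd2 at 6.23 ± 1.44, Mthfd1 at 5.13 ± 0.646 and Gldc at 4.77 ± 0.849 CPM per kb, and each of these neighbours differed from the next by less than the sum of both SDs. In the cultures Shmt2 at 23.2 ± 1.16 and Mthfd2 at 22.3 ± 1.88 CPM per kb stood next after Psat1, within their SDs of each other and above Psph at 10.3 ± 1.65 CPM per kb. Gldc was seventh of the 10 per kilobase in uninjured cortex, eighth in injured cortex and last in the cultures at 0.0945 ± 0.0168 CPM per kb.

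**Figure D1:**
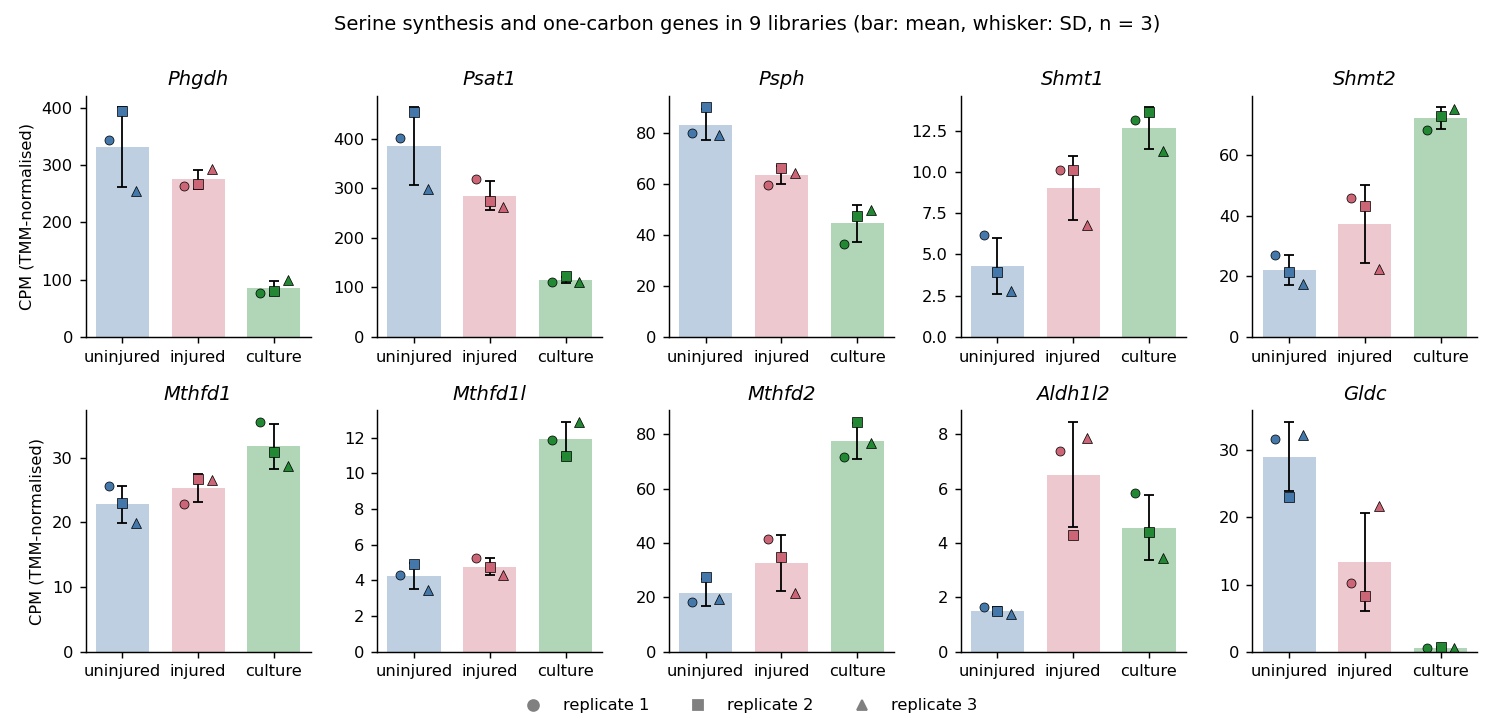
TMM-normalised CPM (vertical axes, each from 0) of the 10 genes in 9 libraries, with bars for group means and whiskers for SD (n = 3) and symbols for replicates. Phgdh, Psat1, Psph and Gldc are lowest in the 3 cultures, and Shmt1, Shmt2, Mthfd1, Mthfd1l and Mthfd2 are highest there.

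Between injured and uninjured cortex, 1 of the 10 genes passed the test: Aldh1l2 rose 4.30-fold. The other 9 did not pass, and the largest of their estimates were those of Shmt1, higher in all 3 injured libraries, and Gldc, lower in all 3. Across all genes tested, 11.9% were called in this comparison, 8.99% as higher and 2.87% as lower, so 1 of 10 is near the background. Groups did not overlap for 4 members, Shmt1 and Aldh1l2 as higher and Psph and Gldc as lower, against 28.6% of all genes (16.1% higher, 12.5% lower). An unadjusted p under 0.05 was found for 5 members and for 26.2% of all genes. Without injured replicate 3, 5 members were called: Aldh1l2, Shmt1, Shmt2 and Mthfd2 as higher and Gldc as lower, while the share of all genes called was then 21.9%. Without uninjured replicates 2 and 3 the estimate of Aldh1l2 was 1.96 against 2.10. With only uninjured replicate 1 left, that fit gives an estimate and does not show whether the call holds.

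In the cultures 7 of the 10 genes differed from injured cortex, 3 higher (Shmt2, Mthfd1l, Mthfd2) and 4 lower (Phgdh, Psat1, Psph, Gldc), against 50.1% of all genes tested (20.0% higher, 30.1% lower). Groups did not overlap for 9 members, all but Aldh1l2, against 59.7% of all genes (25.8% higher, 33.8% lower). Against uninjured cortex all 10 were called, 6 higher and 4 lower, against 60.5% of all genes (27.5% higher, 33.1% lower), and the groups did not overlap for any of the 10, against 69.2% of all genes (32.1% higher, 37.1% lower). Both comparisons share the culture libraries. The median change of the 10 was 0.16 between injured and uninjured cortex, -0.09 in cultures against injured cortex and 0.98 against uninjured cortex, beside medians over all genes of 0.00, -0.19 and -0.17. With library totals in place of TMM scaling the medians over all genes moved to -0.78 and -0.89 in the 2 culture comparisons, and the calls were then 2 higher and 5 lower against injured cortex and 4 higher and 4 lower against uninjured cortex. The changes of Phgdh, Psat1, Psph, Gldc, Mthfd1l and Mthfd2 in the cultures were called in the same direction on either scale.

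**Figure D2:**
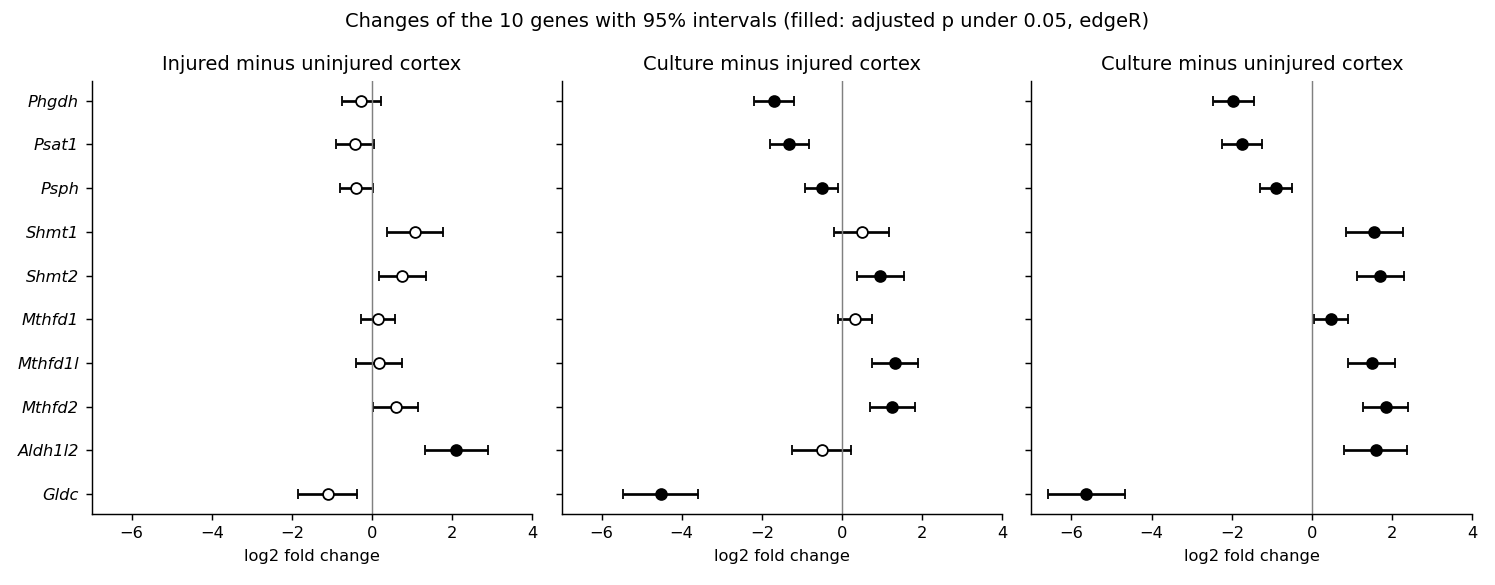
Log2 fold changes (horizontal axes) of the 10 genes in the 3 comparisons, with 95% intervals from the edgeR fit of 9 libraries, filled where the adjusted p was under 0.05. One point is filled between injured and uninjured cortex (Aldh1l2), 7 in cultures against injured cortex and all 10 in cultures against uninjured cortex.

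Of the serine synthesis genes, Phgdh and Psat1 were lower in the cultures than in either in vivo group, and between injured and uninjured cortex no difference passed the test. Phgdh, the entry enzyme of the pathway, was at 344, 393 and 255 CPM in uninjured replicates 1 to 3, at 264, 267 and 293 CPM in injured cortex and at 76.3, 79.9 and 98.8 CPM in the cultures. The injured values lay inside the uninjured range, and the cultures lay below both. Phgdh fell by 1.69 ± 0.23 on the log2 scale (3.23-fold; adjusted p = 9.15e-05) against injured cortex and by 1.96 ± 0.23 (3.89-fold; adjusted p = 1.96e-05) against uninjured cortex. After injury the estimate was -0.27 ± 0.22, with a 95% interval from -0.75 to 0.22 (adjusted p = 0.485). In GENCODE M21, 13 processed pseudogenes share at least 200 bases with Phgdh at 95% identity or more, and their counts were 0.551% to 2.59% of the joint count over the 9 libraries.

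Psat1, the aminotransferase of the second step, was at 401, 454 and 299 CPM in uninjured cortex, at 319, 274 and 262.5 CPM in injured cortex and at 111, 122 and 110 CPM in the cultures. The 3 cultures were again below every in vivo library, and injured and uninjured values overlapped. Psat1 fell by 1.31 ± 0.22 against injured cortex (2.49-fold; adjusted p = 0.000498) and by 1.75 ± 0.23 against uninjured cortex (3.35-fold; adjusted p = 4.22e-05). Its estimate between injured and uninjured cortex was -0.43 ± 0.22 (95% interval -0.91 to 0.05; adjusted p = 0.24).

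Psph, which releases serine from phosphoserine, moved less. It was at 80.1, 90.2 and 79.3 CPM in uninjured cortex, at 59.5, 66.4 and 64.3 CPM in injured cortex and at 36.4, 47.4 and 49.9 CPM in the cultures. No 2 groups overlapped. Psph fell by 0.90 ± 0.19 against uninjured cortex (1.87-fold; adjusted p = 0.00138). The fall of 0.51 ± 0.19 against injured cortex (adjusted p = 0.0381) was no longer called under 10 of 19 alternatives, where the adjusted p reached 0.141. After injury the estimate was -0.39 ± 0.19 (adjusted p = 0.204). Psph overlaps Cct6a, a chaperonin gene, by 452 bases on the opposite strand, and the counts come with no stated strand setting. Cct6a held 60.1% to 67.7% of the joint count of the 2 genes in uninjured cortex, 72.6% to 80.65% in injured cortex and 87.3% to 91.8% in the cultures. Cct6a rose in the cultures by 0.84 ± 0.24 (adjusted p = 0.012) and 1.28 ± 0.24 (adjusted p = 0.000705) against injured and uninjured cortex, the opposite direction to Psph. Between injured and uninjured cortex Cct6a changed by 0.44 ± 0.24 (adjusted p = 0.266). The part of the overlap in the changes of Psph was not tested.

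The astrocyte markers fell further than the serine synthesis genes in the same cultures. Their median change was -4.39 against injured and -5.17 against uninjured cortex, beside -1.69 and -1.96 for Phgdh. Within the cultures the Phgdh level was 76.3 to 98.8 CPM beside a sum of all 10 astrocyte markers of 105 to 170 CPM, whereas in uninjured cortex that sum was 3998 to 6957 CPM beside 255 to 393 CPM of Phgdh. The part that cell composition had in these falls was not tested. Within injured cortex Phgdh was at 293 CPM in replicate 3, where the astrocyte sum was highest, and at 264 and 267 CPM in the others. Psat1 was at 262.5 CPM in that replicate, below the 319 and 274 CPM of the others. Within uninjured cortex Phgdh was highest, at 393 CPM, where the astrocyte sum was lowest, at 3998 CPM. It was at 344 and 255 CPM where the sum was 6957 and 5577 CPM.

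Both serine hydroxymethyltransferase genes rose in the cultures against uninjured cortex. Shmt2, the mitochondrial enzyme, was at 27.2, 21.6 and 17.5 CPM in uninjured cortex, at 45.9, 43.3 and 22.4 CPM in injured cortex and at 68.3, 73.1 and 75.4 CPM in the cultures. Injured replicate 3 lay within the uninjured range and the other 2 injured libraries above it, while the cultures were above all. Shmt2 rose by 1.71 ± 0.27 against uninjured cortex (3.27-fold; adjusted p = 0.000218) and by 0.96 ± 0.27 against injured cortex (1.95-fold; adjusted p = 0.0107), where library totals gave 0.45 with an adjusted p of 0.0775. Injury gave an estimate of 0.75 ± 0.27 (adjusted p = 0.0945), which was 0.99 when injured replicate 3 was left out (adjusted p = 0.00487).

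Shmt1, the cytosolic enzyme, was far lower, at 6.18, 3.95 and 2.80 CPM in uninjured cortex, 10.1, 10.1 and 6.76 CPM in injured cortex and 13.2, 13.6 and 11.3 CPM in the cultures. No 2 groups overlapped. Shmt1 rose by 1.56 ± 0.33 in the cultures against uninjured cortex (2.94-fold; adjusted p = 0.00145), and the estimate was 1.03 without uninjured replicates 2 and 3. With only uninjured replicate 1 left, that fit does not show whether the call holds. Against injured cortex the estimate was 0.50 ± 0.32 (adjusted p = 0.205), and with library totals -0.05. For injured against uninjured cortex it was 1.06 ± 0.32 (adjusted p = 0.0521), and it was called under 5 alternatives, among them leaving out injured replicate 3 (1.21; adjusted p = 0.0164).

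The mitochondrial genes that turn the one-carbon unit into formate rose together in the cultures. Mthfd2, the dehydrogenase and cyclohydrolase, was at 18.4, 27.5 and 19.4 CPM in uninjured cortex, at 41.6, 34.9 and 21.5 CPM in injured cortex and at 71.6, 84.6 and 76.9 CPM in the cultures. The cultures were above all in vivo libraries, and injured replicate 3 again lay within the uninjured range. Mthfd2 rose by 1.84 ± 0.26 against uninjured cortex (3.57-fold; adjusted p = 8.76e-05) and by 1.25 ± 0.26 against injured cortex (2.38-fold; adjusted p = 0.00172). The estimate after injury was 0.58 ± 0.25 (adjusted p = 0.167), or 0.79 when injured replicate 3 was left out (adjusted p = 0.0209).

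Mthfd1l, the formate-releasing synthetase of mitochondria, was at 4.30, 4.94 and 3.47 CPM in uninjured cortex, at 5.28, 4.76 and 4.32 CPM in injured cortex and at 11.9, 11.0 and 12.9 CPM in the cultures. Injured and uninjured values overlapped, and the cultures were above both. Mthfd1l rose by 1.32 ± 0.27 against injured cortex (2.49-fold; adjusted p = 0.00163) and by 1.49 ± 0.27 against uninjured cortex (2.80-fold; adjusted p = 0.000535). Its estimate between injured and uninjured cortex was 0.17 ± 0.27, with an interval from -0.41 to 0.75 (adjusted p = 0.738). Mthfd1, the cytosolic trifunctional enzyme, had the smallest estimates of the 10 in both culture comparisons on the TMM scale. It went from 25.6, 22.9 and 19.9 CPM in uninjured and 22.8, 26.7 and 26.5 CPM in injured cortex to 35.5, 30.9 and 28.8 CPM. Its change of 0.48 ± 0.19 against uninjured cortex (adjusted p = 0.0496) was not called under 15 of 19 alternatives and was -0.23 with library totals. The estimate was 0.33 ± 0.19 against injured cortex (adjusted p = 0.177; -0.26 with library totals) and 0.15 ± 0.19 between injured and uninjured cortex (adjusted p = 0.671; -0.03 without uninjured replicates 2 and 3).

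Aldh1l2, the mitochondrial formyl-tetrahydrofolate dehydrogenase, was the member that rose after injury. It was at 1.65, 1.48 and 1.40 CPM in uninjured cortex, from 30, 33 and 23 counts. In injured cortex it was at 7.40, 4.29 and 7.85 CPM, and in the cultures at 5.83, 4.42 and 3.44 CPM. All 6 of these libraries were above the 3 uninjured ones, and the injured and culture values overlapped. Aldh1l2 rose by 2.10 ± 0.36 in injured cortex (4.30-fold; adjusted p = 0.00273) and by 1.59 ± 0.36 in the cultures against uninjured cortex (3.01-fold; adjusted p = 0.00252). Without uninjured replicates 2 and 3 the estimates were 1.96 and 1.46. With only uninjured replicate 1 left, that fit does not show whether the calls hold. With library totals the change in the cultures was 0.88 (adjusted p = 0.0884). Cultures against injured cortex gave -0.51 ± 0.34 (adjusted p = 0.227), and -1.14 with library totals (adjusted p = 0.0368). Injured replicate 3, which stood nearest uninjured cortex for Shmt2, Mthfd2 and Gldc, had the highest Aldh1l2 level of all 9 libraries. Aldh1l2 overlaps Nopchap1 by 1056 bases on the opposite strand, and reads there cannot be told apart without a strand setting. Nopchap1 held 84.3% to 88.0% of the joint count of the 2 genes in uninjured cortex, 63.0% to 74.05% in injured cortex and 82.1% to 87.4% in the cultures. Nopchap1 changed by 0.47 ± 0.21 between injured and uninjured cortex (adjusted p = 0.18) and rose by 1.30 ± 0.21 in the cultures against uninjured cortex (adjusted p = 0.00027). The part of the overlap in the change of Aldh1l2 was not tested.

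Gldc had the largest change of the 10 in the cultures. It was at 31.7, 23.1 and 32.3 CPM in uninjured cortex, at 10.2, 8.26 and 21.7 CPM in injured cortex and at 0.491, 0.689 and 0.547 CPM in the cultures, where it had 8, 12 and 7 counts. No 2 groups overlapped. Gldc fell by 4.52 ± 0.43 against injured cortex (23.0-fold; adjusted p = 5.66e-06) and fell by 5.63 ± 0.44 against uninjured cortex (49.7-fold; adjusted p = 7.2e-07). The estimate after injury was -1.11 ± 0.34 (adjusted p = 0.0513). It was called as lower under 8 alternatives, among them leaving out injured replicate 3 (-1.67; adjusted p = 0.00067). Within injured cortex, Gldc was at 10.2 and 8.26 CPM where the astrocyte sum was 2277 and 2726 CPM and at 21.7 CPM where it was 4016 CPM. Within uninjured cortex it was at 23.1 CPM where the sum was 3998 CPM and at 31.7 and 32.3 CPM where it was 6957 and 5577 CPM. The size of the Gldc change in the cultures lay within the range of the 10 astrocyte markers, which was -2.24 to -8.31 against uninjured cortex. Falls of that size were not particular to astrocyte markers: microglia, mural and oligodendrocyte markers had medians of -4.79, -5.72 and -7.69 there. Monocyte and macrophage, fibroblast and neuron markers had medians of 0.47, 3.23 and 0.06. The part that cell composition had in the change of Gldc was not tested.

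**Figure D3:**
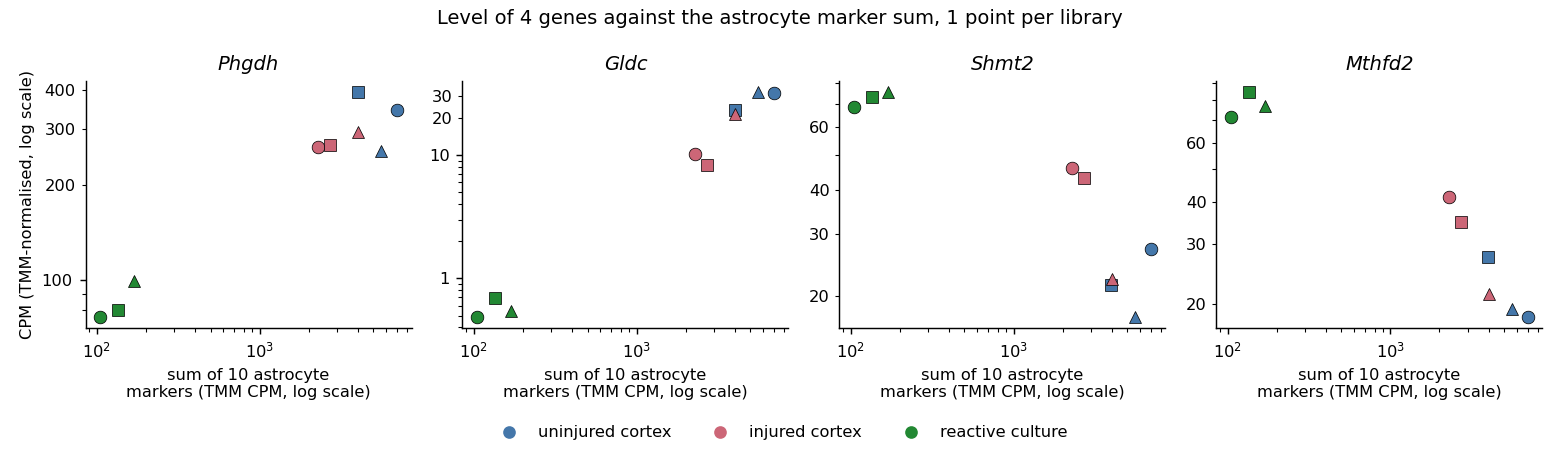
TMM-normalised CPM of Phgdh, Gldc, Shmt2 and Mthfd2 (vertical, log scale) against the sum of 10 astrocyte markers (horizontal, TMM-normalised CPM, log scale), 1 point per library with colour for the group and symbols for replicates 1 (circle), 2 (square) and 3 (triangle). Injured replicate 3, at a sum of 4016 CPM, lies nearer to the uninjured libraries than the other injured libraries do for Gldc, Shmt2 and Mthfd2.

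Ratios between members within a library do not depend on the scaling. In uninjured cortex Shmt2 had 0.0790, 0.0549 and 0.0688 counts per count of Phgdh, in injured cortex 0.174, 0.162 and 0.0763, and in the cultures 0.895, 0.915 and 0.763. For Mthfd2 to Phgdh the ratios were 0.0534, 0.0699 and 0.0759, then 0.157, 0.131 and 0.0733, then 0.938, 1.06 and 0.779. Both ratios were higher in the 3 cultures than in the 6 in vivo libraries, and injured replicate 3 lay within the uninjured range for both. Psat1 to Phgdh stayed within 0.896 to 1.53 over all 9 libraries, at 1.15 to 1.17 in uninjured cortex, and Psph to Phgdh was 0.229 to 0.311, 0.219 to 0.249 and 0.477 to 0.593 in the 3 groups. Shmt2 to Shmt1 overlapped between uninjured cortex and the cultures, at 4.40 to 6.26 and 5.18 to 6.70, and was 3.31 to 4.54 in injured cortex. Mthfd1l to Mthfd1 was 0.168 to 0.216, 0.163 to 0.232 and 0.335 to 0.448. Mthfd2 to its paralog Mthfd2l was 1.33 to 2.42 in uninjured cortex, 2.97 to 5.34 in injured cortex and 4.65 to 5.79 in the cultures. Phgdh and Psat1 took 34.95% to 37.7% and 40.9% to 43.5% of the counts of the 10 genes in uninjured cortex and 17.1% to 21.1% and 23.6% to 26.2% in the cultures, while the share of Mthfd2 was 1.95% to 2.65% and 16.4% to 18.1%. These ratios and shares were not tested.

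**Figure D4:**
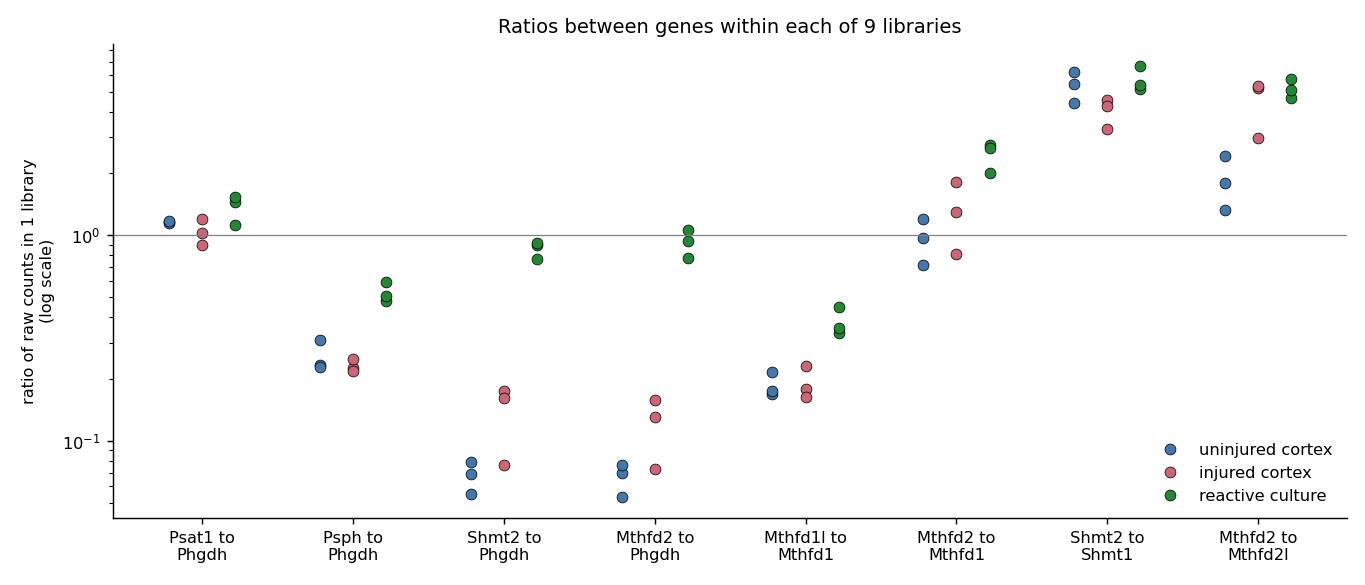
Ratios of raw counts between pairs of genes (vertical, log scale) within each of 9 libraries, 1 point per library, coloured by group, with a line at 1. Shmt2 to Phgdh and Mthfd2 to Phgdh are 0.763 to 1.06 in the cultures and 0.0534 to 0.174 in the other 6 libraries.

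The other genes of the same metabolism were counted from lists, of which 76 of 78 genes were tested. Their counts stand beside the share of all genes called, 11.9% after injury. In the cultures that share was 50.1% against injured and 60.5% against uninjured cortex. List medians, where given, stand beside the medians over all genes above. Calls lost under some of the 19 alternatives are marked as such, apart from those of Tyms and Pfas in the fit with only uninjured replicate 1 left. For these the estimate alone is given, which does not show whether the call holds. In cultures against injured cortex the calls of Mthfd2l, Slc25a32, Ahcy and Mtrr were lost with library totals. Of 7 folate cofactor genes tested, 3 rose in injured cortex and 0 fell (median 0.39), and 4 rose and 1 fell in the cultures against injured (median 0.76) and against uninjured cortex (median 0.65; -0.08 with library totals). With library totals 2 rose and 2 fell in the cultures against injured cortex. Tyms, thymidylate synthase, rose by 1.30 ± 0.25 after injury (adjusted p = 0.00545; estimate 1.27 without uninjured replicates 2 and 3) and by 1.48 ± 0.25 in the cultures against injured cortex (adjusted p = 0.00047), from 12.4 over 30.5 to 84.8 CPM in the group means. The exception was Aldh1l1, the cytosolic counterpart of Aldh1l2 and itself a well-known astrocyte marker: at 57.9 and 60.9 CPM in uninjured and injured cortex, it was at 3.42 CPM in the cultures, and its change against injured cortex was -4.17 ± 0.32 (adjusted p = 1.02e-06). Mthfd2l, the paralog of Mthfd2, was not called after injury (-0.72 ± 0.23; adjusted p = 0.0653) and rose in the cultures against injured cortex (1.06 ± 0.23; adjusted p = 0.0029).

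Of 7 folate transport and retention genes, 0 rose and 1 fell in injured cortex, 4 rose in the cultures against injured cortex, and 4 rose and 1 fell against uninjured cortex. With library totals these last 2 counts were 2 higher with 2 lower and 1 higher with 3 lower. The gene that fell was Slc19a1, the reduced folate carrier, by 1.02 ± 0.22 after injury (adjusted p = 0.0113, lost under 2 alternatives) and by 1.55 ± 0.23 in the cultures against uninjured cortex (adjusted p = 0.000117). Folr2, the folate receptor known from macrophages, rose by 3.76 ± 0.50 in the cultures against injured cortex (adjusted p = 8.24e-05), to 28.4, 33.5 and 17.1 CPM from 1.37, 2.77 and 1.73 CPM. In these cultures monocyte and macrophage markers summed to 40460 CPM or more, mostly Lyz2, with 3 of the 8 higher and 5 lower than in injured cortex, and their part in the change was not tested. Slc25a32, the mitochondrial folate carrier, rose by 1.18 ± 0.23 in the same comparison (adjusted p = 0.00116).

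The 3 partners of Gldc in glycine cleavage did not move as one. Gcsh, the H protein, rose by 0.79 ± 0.22 in injured cortex (adjusted p = 0.0352, lost under 10 of 19 alternatives) and by 1.31 ± 0.22 in the cultures against uninjured cortex (adjusted p = 0.000311). Amt, the aminomethyltransferase, fell by 1.78 ± 0.49 after injury (adjusted p = 0.0362, lost under 8 alternatives) and fell by 3.13 ± 0.55 in the cultures against uninjured cortex (adjusted p = 0.000455), to 0.245, 0.344 and 0.547 CPM. Dld, the dihydrolipoamide dehydrogenase that pyruvate dehydrogenase also uses, rose in the cultures against uninjured cortex by 0.76 ± 0.21 (adjusted p = 0.00777, lost under 2 alternatives). Against injured cortex, 0 of the 3 were called.

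Among 8 tested genes of the methionine cycle and transsulfuration, 0 were called after injury, and in the cultures 2 rose and 2 fell against each in vivo group. Neither culture count is above the share of all genes called, 50.1% against injured and 60.5% against uninjured cortex. Cbs, the entry enzyme of transsulfuration, fell by 4.94 ± 0.35 against injured cortex (adjusted p = 4.99e-07), from 27.8 CPM to 0.902 CPM in the means, and Cth, the next enzyme, by 1.56 ± 0.31 (adjusted p = 0.00141). Ahcy, which clears S-adenosylhomocysteine, and Mtrr, the reductase that reactivates methionine synthase, rose by 1.08 ± 0.24 and 1.09 ± 0.27 (adjusted p = 0.00266 and 0.00553). With library totals, 0 of the 8 rose and 4 fell in that comparison.

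Of 12 genes of serine and glycine transport and use, 0 were called after injury, and in the cultures 3 rose and 4 fell against injured cortex and 4 rose and 4 fell against uninjured cortex. Both culture counts are near the shares of all genes called, 50.1% and 60.5%. With library totals 1 rose and 7 fell, and 3 rose and 7 fell. The 4 that fell were transporters known from astrocytes or neurons and 1 dehydratase gene. Slc7a10, the exchanger of small neutral amino acids including D-serine, went from 44.9, 65.4 and 84.1 CPM in injured cortex to 0.368, 0 and 0.547 CPM in the cultures (-7.80 ± 0.63; adjusted p = 1.56e-06). Slc6a9, a glycine transporter, fell by 3.12 ± 0.44 (adjusted p = 0.000116), Slc1a4, which carries L-serine, by 2.30 ± 0.33 (adjusted p = 0.000131) and Sdsl, a serine dehydratase-like gene, by 1.66 ± 0.40 (adjusted p = 0.00472). The fall of the astrocyte markers listed above accompanied these changes, and its part in them was not tested. Sfxn3 and Sfxn1, sideroflexins that carry serine into mitochondria, rose by 1.74 ± 0.23 and 0.73 ± 0.24 (adjusted p = 8.06e-05 and 0.0231), and Sptlc2, a subunit of serine palmitoyltransferase, by 0.60 ± 0.22 (adjusted p = 0.0355). The calls of Sfxn1 and Sptlc2 were lost under 4 and 8 of 19 alternatives.

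Of 6 purine synthesis genes, which take up formyl units from the folate cycle, 0 were called after injury, 3 rose in the cultures against injured cortex (median 0.54; 0.00 with library totals) and 3 rose and 1 fell against uninjured cortex. Taken in either direction, both culture counts are near the shares of all genes called, 50.1% and 60.5%. With library totals 1 rose and 1 fell in either culture comparison. Ppat, the committed enzyme, rose by 1.29 ± 0.23 against injured cortex (adjusted p = 0.000673), Gart by 0.76 ± 0.23 (adjusted p = 0.0162) and Adsl by 0.70 ± 0.22 (adjusted p = 0.0178), the last 2 losing the call under 2 and 3 alternatives. Pfas fell by 1.40 ± 0.36 against uninjured cortex (adjusted p = 0.005; estimate -0.98 without uninjured replicates 2 and 3). In glycolysis, the source of 3-phosphoglycerate, 1 of 10 genes rose after injury (Pkm, 1.45 ± 0.35; adjusted p = 0.0181, lost under 4 alternatives), and 9 rose and 1 fell in the cultures against each in vivo group (7 and 1 against injured cortex with library totals). Pgk1, whose product phosphoglycerate kinase makes 3-phosphoglycerate, rose by 1.70 ± 0.23 against injured cortex (adjusted p = 8.59e-05) and Pkm by 2.69 ± 0.36 (adjusted p = 9e-05), while Hk2 fell by 1.13 ± 0.28 (adjusted p = 0.00587). Its fall against uninjured cortex (-0.76 ± 0.28; adjusted p = 0.0337) was not called under 5 of 19 alternatives.

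Of 13 genes listed as ATF4 and its targets, 5 rose and 0 fell after injury (median 0.61), 6 rose and 0 fell in the cultures against injured cortex (median 0.62), and 9 rose and 0 fell against uninjured cortex (median 1.05). With library totals the second of these counts was 2 higher and 4 lower (median -0.01), and the third 5 higher and 2 lower. Asns, asparagine synthetase, was at 5.29, 2.47 and 2.74 CPM in uninjured cortex, at 21.2, 18.9 and 12.4 CPM in injured cortex and at 108.5, 121 and 120 CPM in the cultures. Each group lay above the one before it. Asns rose by 2.32 ± 0.30 after injury (adjusted p = 0.000478) and by 2.74 ± 0.29 in the cultures against injured cortex (adjusted p = 1.52e-05). Trib3, a stress-induced pseudokinase gene, rose by 1.90 ± 0.39 and 2.70 ± 0.36 (adjusted p = 0.00783 and 8.48e-05; the first lost under 2 alternatives), and Chac1, a glutathione-degrading enzyme gene, by 2.74 ± 0.60 and 1.81 ± 0.52 (adjusted p = 0.0117 and 0.0121; lost under 4 and 2 alternatives). The Atf4 transcript itself was not called, with estimates of 0.48 ± 0.30, -0.63 ± 0.30 and -0.15 ± 0.30 (adjusted p = 0.338, 0.0965 and 0.683). Among the 10 serine and one-carbon genes, known ATF4 targets thus went both ways in the cultures: Phgdh and Psat1 fell, and Shmt2, Mthfd2 and Aldh1l2 rose against uninjured cortex.

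**Figure D5:**
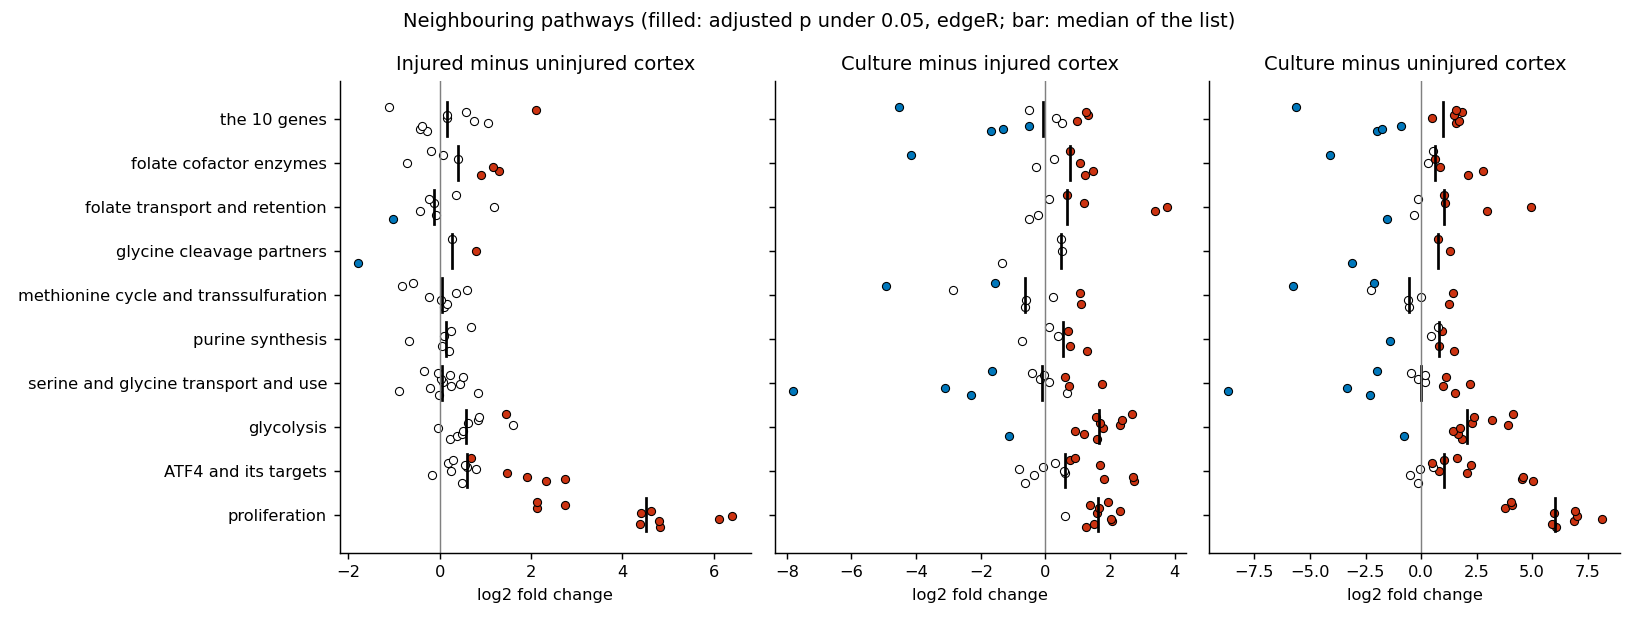
Log2 fold changes (horizontal axes, scale differing between panels) of every tested gene of the 10 serine and one-carbon genes and of 9 lists in the 3 comparisons, red or blue where the adjusted p was under 0.05 and open otherwise, with a bar at the median of the list. The ATF4 list holds 5, 6 and 9 red points and 0 blue ones, and glycolysis has 9 red and 1 blue in both culture comparisons.

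Proliferation genes rose in all 3 comparisons. Of 10 such genes, 10 rose in injured cortex, 9 in the cultures against injured cortex and 10 against uninjured cortex, with summed levels of 26.3 to 30.5 CPM in uninjured cortex, 245 to 401 CPM in injured cortex and 1031 to 1253 CPM in the cultures. Mki67 rose by 4.83 ± 0.25 after injury (adjusted p = 1.54e-06), and Shmt2, Mthfd2 and Mthfd1l, listed above, were not called in that comparison. Without injured replicate 3, Shmt2 and Mthfd2 were called as higher there, as given above. Whether cell division had a part in the changes of the folate genes was not tested.

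The genes whose levels ran most like those of each member were searched among the 11104 tested genes that averaged 5 CPM or more, by Pearson's r of log2 CPM over the 9 libraries. The libraries fall into 3 groups, so these values describe shared group differences. Gldc ran closest to Pantr2, Rorb and Enho (r = 0.998, 0.997 and 0.996), and Phgdh to Pim3, Tnfaip6 and Elovl7 (r = 0.997, 0.993 and 0.993). Psat1 had Sh3gl2, Vamp2 and Tmem151a (r = 0.995, 0.994 and 0.992). Shmt2 had Ccl9, a chemokine gene on the monocyte and macrophage list, at r = 0.997, followed by Eepd1 and Ino80e. Mthfd2 had Tmem167, Txnl1 and Fth1 (r = 0.990, 0.988 and 0.988), and Mthfd1l had Mif, Tec and Tmem181a (r = 0.992, 0.991 and 0.990). The nearest gene to Aldh1l2 was Fabp7, a brain fatty acid binding protein gene, at r = 0.972.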

How the data were processed

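Polyadenylated RNA of 9 libraries, 3 each of uninjured cortex, injured cortex and reactive culture, was grouped by the sample labels. The authors deposited raw counts per gene. HISAT2 and the GRCm39 build are named in the submitters' processing notes, while tool, strand setting and annotation of the counting step are not stated there. No molecular identifiers are named in the labels. No 2 libraries held identical values.

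Counts were tested in R 4.3.3 with edgeR 4.0.16: TMM scaling, filterByExpr at its defaults (18093 genes), a quasi-likelihood fit with a mean per group over all 9 libraries (6 residual degrees of freedom), and Benjamini-Hochberg adjustment over all genes tested. SE is the log2 fold change divided by the root of F. The fit was tested on simulated data in which few genes changed, up and down alike. That test did not cover the scaling of the culture comparisons, where 50.1% and 60.5% of genes were called. Alternatives, 19 in all, were other scalings and filters, DESeq2 1.42.0, voom in limma 3.58.1, 2 groups alone, a replicate block and each library left out; library totals and leaving out uninjured replicates 2 and 3 were added after seeing the data.

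The 10 genes, the lists and the tests were chosen with earlier results of these data known. Of each list the 3 genes with the smallest adjusted p in a comparison and called exceptions are named; Atf4, Mthfd2l, Nopchap1 and Cct6a stand outside that rule. Some results under this rule are left out of the text. Aars, Sars and Gars were matched by synonym. Overlaps and near copies came from GENCODE M21 transcripts and promoters from RefSeq.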

Additional observations from a re-analysis of the deposited data

How the results depend on the processing

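Of 570 values of the 10 genes over 19 alternatives in 3 comparisons, 520 kept their direction and their side of the threshold, 29 lost the call, 17 gained it and 4 changed sign. Between injured and uninjured cortex, 1 member was called, against 2 with DESeq2 size factors, upper-quartile factors, voom or a minimum of 1 CPM in 3 libraries, 3 with the DESeq2 Wald test, 4 with no filter, 0 without uninjured replicates 2 and 3, and 1 to 5 with single libraries left out. Over all genes, 2145 calls became 1369 with the 2 groups alone, 462 without uninjured replicates 2 and 3, and 974 to 4102 with single libraries left out, the highest without injured replicate 3. In cultures against uninjured cortex 10954 calls became 6996 without uninjured replicates 2 and 3. The signs that changed were those of Mthfd1 between injured and uninjured cortex (-0.030 without uninjured replicates 2 and 3) and, with library totals, of Shmt1 (-0.047) and Mthfd1 (-0.26) in cultures against injured cortex and Mthfd1 (-0.23) against uninjured cortex. The cause of these differences was not tested.

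The share of calls that were higher was 75.8% between injured and uninjured cortex, against 64.0% with upper-quartile factors, 60.6% with the DESeq2 Wald test, 59.1% without injured replicate 3, and 86.2% and 87.8% without uninjured replicate 2 and injured replicate 1. In the cultures it was 39.9% against injured and 45.4% against uninjured cortex, and 17.4% and 22.5% with library totals. Deviations of libraries with the same replicate number correlated at r of -0.186 to 0.453 over the 3 comparisons, and those with different numbers at -0.424 to 0.447. With 3 libraries per group this check cannot tell whether the numbers pair samples, and the main fit used no pairing. With the replicate number as a block, 3, 7 and 9 members were called, and 2203 genes between injured and uninjured cortex. Gldc in the cultures rests on 7 to 12 counts per library and Aldh1l2 in uninjured cortex on 23 to 33, which limits their precision.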
